A study of Mus musculus with 52 samples.

Results

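The genes described here encode the mitochondrial ribosomal proteins. They were taken as every gene whose symbol begins with Mrpl or Mrps and a digit and that had a probe set of its own on the Affymetrix Mouse Gene 2.0 ST array. Of several such probe sets for a gene, the brightest on average was used. There were 71 of these genes among 22180 genes so represented, 43 with Mrpl and 28 with Mrps symbols, on 17 chromosomes. Testing required a value above 4.05, the median of the deposited log2 table, on 4 or more of the 52 arrays, and 69 of the 71 passed. Mrps14 and Mrps36 did not pass, each lying above that median on 1 array. A further 7 genes of the family, Mrpl30, Mrpl33, Mrpl41, Mrpl43, Mrpl44, Mrpl53 and Mrps6, lay only on probe sets that name several genes and were not used.

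RNA came from bone marrow stromal cells of female C57BL/6J mice aged 8 weeks, cultured for 7 days before the switch to osteoinductive medium, which holds ascorbate, β-glycerol phosphate, insulin and dexamethasone. The cultures then received Rosi (rosiglitazone, 100 nM, an agonist of the nuclear receptor PPARγ), LG268 (LG100268, 100 nM, an agonist of its partner RXR), TBT (the organotin tributyltin, 80 nM), TPhP (the flame retardant triphenyl phosphate), MEHP (a metabolite of phthalate plasticizers, mono-2-ethylhexyl phthalate) or vehicle (DMSO). Each was harvested 1 and 4 days after induction, and naive cells were harvested just before the medium change. The treatment notes also call naive the cells that got the medium and no treatment, and the label undifferentiated was followed here. The doses of TPhP and MEHP are not in the labels used here. This gave 13 groups of 4 arrays, each with 1 array from pools 12, 15, 19 and 20, a pool being the cells of 2 to 4 mice. Every group other than naive received the osteoinductive medium, so no chemical was seen without it.

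Mitochondria translate the few proteins encoded by their own DNA, all of them subunits of the respiratory chain and ATP synthase, on ribosomes of their own. The ribosomal RNAs of that machine come from mitochondrial DNA, whereas all of its proteins are encoded in the nucleus, made in the cytosol and imported. It has a small subunit, which binds the messenger and decodes it, and a large subunit, which joins the amino acids. Some of its proteins have relatives in bacterial ribosomes, and others are found only in mitochondria. Fat cells gain mitochondria as they form, and PPARγ is the receptor that drives their formation.

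Under the uniform naming of ribosomal proteins, 45 of the 71 genes belong to the large subunit and 25 to the small subunit. Mrps18a and Mrps30, despite their symbols, encode large subunit proteins, mL66 and mL65. Mrps36 encodes a protein now known as a subunit of the 2-oxoglutarate dehydrogenase complex and belongs to neither. In the large subunit 28 of them have bacterial relatives and 17 do not, and in the small subunit 15 do and 10 do not, where Mrps18a and Mrps18b, diverged relatives of bacterial S18, count by their uniform names among those without.

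The arrays were of like scale, with medians from 3.97 to 4.15, no 2 were identical, and their number limits the precision. The cultures held several cell types: the mean log2 value of 10 macrophage markers ranged from 10.6 to 11.0 in vehicle arrays at day 4, and that of 7 stromal markers from 9.45 to 9.97. The day 4 TPhP array of pool 12 stood apart in its neutrophil markers, whose mean differed from vehicle by -4.08, against 0.24, 0.34 and 1.42 in pools 15, 19 and 20. Its osteoblast mean differed by 0.98, against -1.04, -1.35 and -2.28, and its macrophage mean by -0.93, against -0.06, -0.40 and -0.12. At day 1 the TPhP array of pool 12 differed by -1.93 in neutrophil markers, against -0.46, -0.002 and -0.04. Its macrophage mean then differed by -0.87, against -0.02, 0.04 and -0.01. The day 4 MEHP array of pool 12 differed in neutrophil markers by -2.52, against 0.27, 0.07 and 0.66. For these chemicals at day 4, counts of ribosomal genes that passed the test are given with and without pool 12. Counts of genes without overlap, of genes shared between chemicals and of the other gene lists include pool 12. In such bulk RNA, a change in the share of a cell type and a change of RNA per cell cannot be told apart.

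The starts of many of these genes share short sequence features. RefSeq promoters (GRCm38.p6, 250 bases before to 50 after the start) matched 62 of the 71 genes, with 68 promoters. The core bound by ETS factors such as GABP, CCGGAAG, was present on either strand in 33.8% of them and in 8.86% of all 32851 promoters in the table. The palindromic NRF-1 motif was present in 16.2% and in 4.6%, and the YY1 motif AAGATGGC in 17.6% and in 2.75%. The general CCAAT box was in 39.7% and 37.4%, and the E-box CACGTG in 10.3% and 7.15%. These are shares of promoters, and Mrpl2 has several overlapping promoters with the E-box. Counted by gene, the E-box was in 5 of 62 members and in 2187 of 27025 genes, which are like shares. The DR1 direct repeat, of the kind bound by PPARγ with RXR, and TCAAGGTCA, bound by estrogen-related receptors, had 0 exact matches in these windows and were in 0.0396% and 0.423% of all promoters. The median GC content was 58.5% in the members' promoters and 52.7% in all promoters, and the motifs differ in GC content, so the shares are descriptions. In promoters of cytosolic ribosomal protein genes the ETS core was as frequent, at 37.7%, and the YY1 motif was in 4.92%. In those of nuclear-encoded respiratory chain genes the NRF-1 motif was in 23.5% and the YY1 motif in 13.2%.

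The promoters of 4 genes were chosen, after the values below were seen, to show these features beside the results. Each line gives the 250 bases before the start on the gene's strand, 5′ to 3′, with matches to the motifs in capitals. Mrps22, which rose most with Rosi, lies on the minus strand at chr9:98601680-98601929 and holds 1 ETS core. Mrpl12, which followed it, lies on the plus strand at chr11:120484387-120484636 and holds 1 NRF-1 motif. Mrps12, which rose less, lies on the minus strand at chr7:28741822-28742071 and holds 1 YY1 motif, read on the other strand, and 4 CCAAT boxes. The wider window used for the shares above also holds 1 ETS core for Mrps12, which is not within the printed bases. Mrpl23, which passed the test with no chemical at day 4, lies on the plus strand at chr7:142532782-142533031 and holds no match.
Mrps22: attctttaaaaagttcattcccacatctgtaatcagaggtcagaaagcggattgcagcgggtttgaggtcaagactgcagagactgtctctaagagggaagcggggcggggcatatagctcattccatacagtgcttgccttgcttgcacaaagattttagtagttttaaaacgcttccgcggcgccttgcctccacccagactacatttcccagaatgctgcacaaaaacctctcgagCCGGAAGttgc
Mrpl12: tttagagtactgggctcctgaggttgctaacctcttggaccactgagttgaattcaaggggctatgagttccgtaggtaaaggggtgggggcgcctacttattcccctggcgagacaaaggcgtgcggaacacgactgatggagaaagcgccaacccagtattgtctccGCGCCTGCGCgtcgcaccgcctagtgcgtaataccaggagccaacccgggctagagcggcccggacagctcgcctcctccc
Mrps12: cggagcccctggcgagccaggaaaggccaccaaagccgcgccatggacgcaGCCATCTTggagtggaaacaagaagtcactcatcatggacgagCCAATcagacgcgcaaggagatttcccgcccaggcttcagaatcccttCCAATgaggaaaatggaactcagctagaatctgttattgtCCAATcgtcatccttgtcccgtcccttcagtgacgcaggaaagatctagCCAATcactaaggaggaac
Mrpl23: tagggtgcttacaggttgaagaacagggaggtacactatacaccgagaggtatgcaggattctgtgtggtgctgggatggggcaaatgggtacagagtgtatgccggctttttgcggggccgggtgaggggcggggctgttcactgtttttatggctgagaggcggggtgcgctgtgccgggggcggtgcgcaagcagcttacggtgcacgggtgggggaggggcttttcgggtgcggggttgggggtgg
Motifs were also present in genes that rose with no chemical: the Mrpl52 promoter held 2 ETS cores. Mrps11 and Mrpl46 start head to head on chromosome 7, 42 bases apart, at positions 78783131 on the plus strand and 78783089 on the minus strand, so a shared stretch lies before a gene of each subunit.

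Rosi at day 4 gave the largest change, and it ran through nearly the whole set in one direction. Of the 69 genes tested, 65 rose and 0 fell (limma, Benjamini-Hochberg adjusted p below 0.05 over the 14911 genes tested), where 21.3% of all genes rose and 27.7% fell. The median log2 difference of the 69 was 0.75, a 1.68-fold higher level, against a median of -0.05 over all genes tested. In 61 of the 69 all 4 Rosi arrays lay above all 4 vehicle arrays, as did 17.3% of all genes. By subunit, 43 of 45 large subunit genes rose, with a median of 0.75, and 22 of 24 small subunit genes rose, with a median of 0.69. Genes without bacterial relatives had a median of 0.84 and those with them 0.62. The direction was shared by both subunits and both origins, and the sizes ranged from -0.12 to 1.77.

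**Figure D1:**
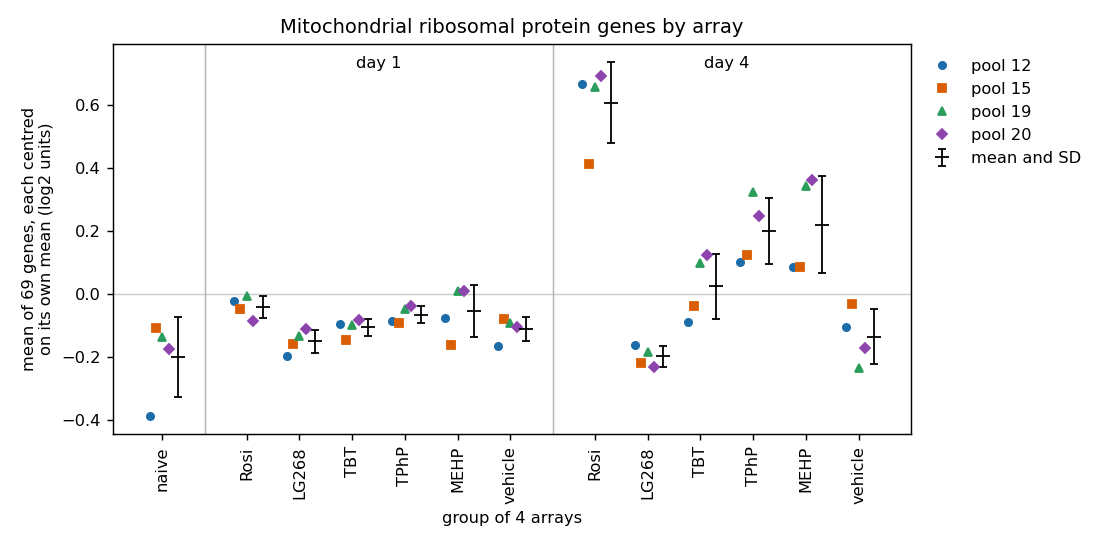
Mean of the 69 tested mitochondrial ribosomal protein genes on each array, in log2 units, after each gene was centred on its mean over all 52 arrays; symbols are pools, bars the mean and SD of 4 arrays. The 4 Rosi arrays of day 4 sit between 0.42 and 0.69, the TPhP and MEHP arrays of day 4 between 0.09 and 0.36, and the vehicle arrays of day 4 between -0.23 and -0.03.

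Mrps22 encodes a small subunit protein found only in mitochondria, and its human counterpart is a gene of inherited combined respiratory chain deficiency. In pools 12, 15, 19 and 20 its log2 values were 8.30, 8.18, 8.57 and 8.42 with Rosi at day 4, against 6.58, 6.79, 6.42 and 6.62 with vehicle. The lowest Rosi array lay well above the highest vehicle array. The difference was 1.77 ± 0.12 (limma SE, n = 4 pools each), or 3.40-fold (limma adjusted p = 5.1e-16). Mrps35, another small subunit protein found only in mitochondria, had 7.64, 7.44, 7.74 and 7.91 with Rosi and 6.14, 6.29, 6.16 and 6.26 with vehicle. Again the groups did not overlap, and the difference was 1.47 ± 0.10 (limma adjusted p = 2.0e-15).

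In the large subunit, Mrpl12 rose most. It encodes the protein of the flexible stalk that contacts translation factors, and it has also been reported to bind the mitochondrial RNA polymerase. Its values were 8.49, 7.70, 8.45 and 8.34 with Rosi at day 4, against 6.76, 6.83, 6.71 and 6.72 with vehicle. The pool 15 array was the lowest of the Rosi arrays and still above every vehicle array. The difference was 1.49 ± 0.16 (limma adjusted p = 2.1e-10). Mrpl38, a mitochondria-specific protein of the large subunit, had 8.65, 8.21, 8.76 and 8.71 with Rosi and 7.23, 7.49, 7.18 and 7.28 with vehicle, a difference of 1.29 ± 0.12. Mrpl51 (1.24 ± 0.12), Mrpl42 (1.22 ± 0.14) and Mrps31 (1.16 ± 0.11), all without bacterial relatives, and Mrpl16 (1.16 ± 0.12), a bacterial-type protein close to the site where peptide bonds form, completed the 8 largest rises. All 8 had the same sign in 4 of 4 pools, as had 63 of the 65 that rose.

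**Figure D2:**
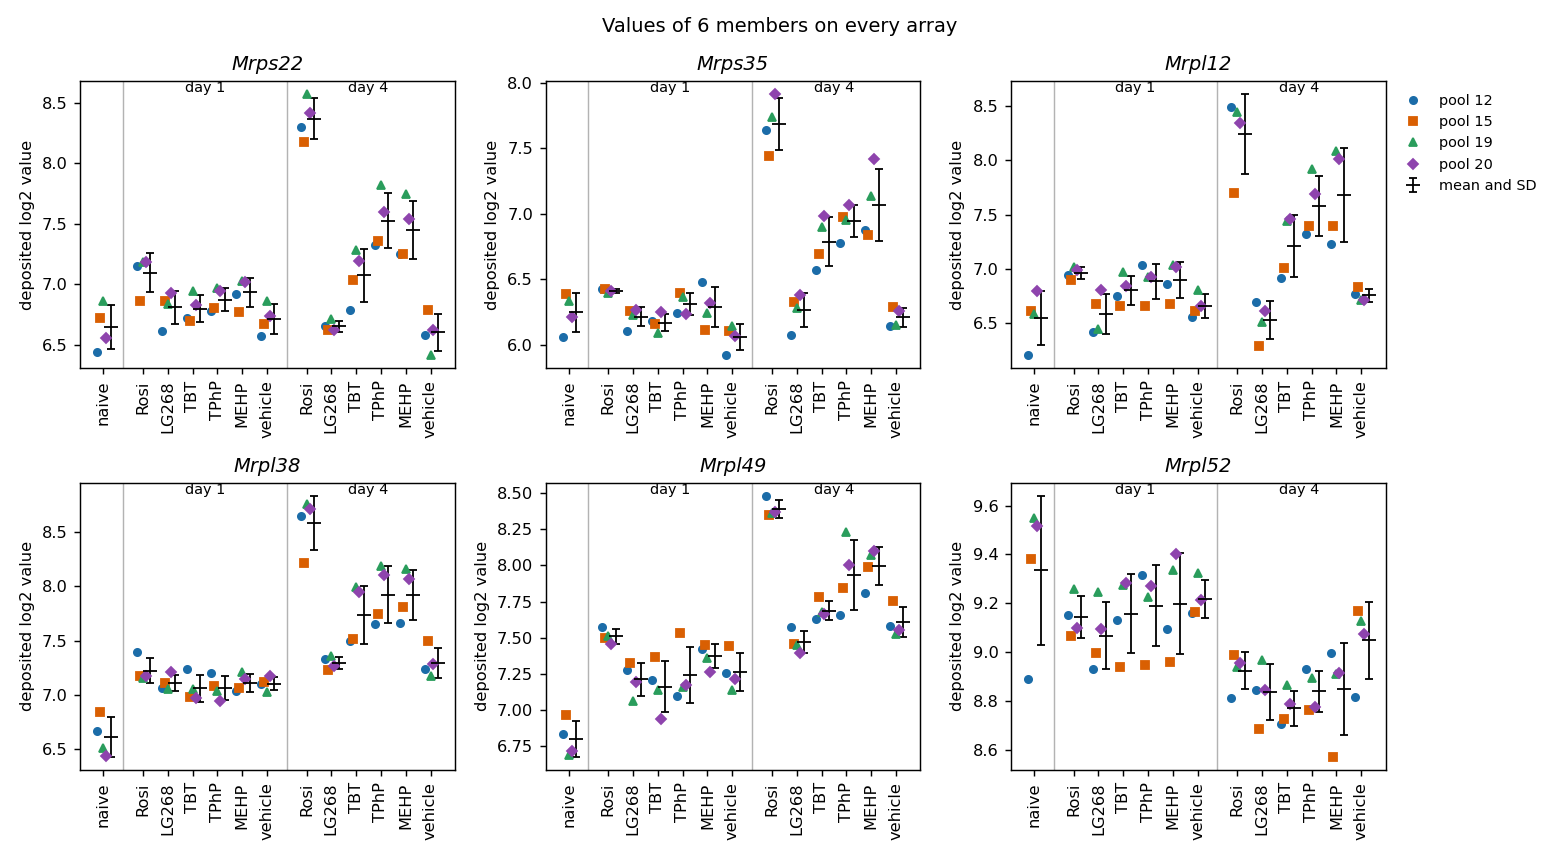
Deposited log2 values of Mrps22, Mrps35, Mrpl12, Mrpl38, Mrpl49 and Mrpl52 on every array, by group; symbols are pools, bars the mean and SD of 4 arrays. Mrps22, Mrps35, Mrpl12 and Mrpl38 are highest in the Rosi arrays of day 4, Mrpl49 climbs with time in vehicle as well, and Mrpl52 shows no rise with any chemical.

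Genes at the working sites of the ribosome rose with Rosi at day 4 by differing amounts. Mrps12, of the decoding site in the small subunit, had 6.65, 6.57, 6.90 and 6.80 with Rosi and 6.39, 6.35, 6.16 and 6.23 with vehicle. The groups did not overlap, but the difference was small, 0.45 ± 0.10 (limma adjusted p = 2.6e-04). Mrpl11, at the base of the stalk, differed by 0.60 ± 0.08. Of the 3 relatives of bacterial S18, Mrps18b differed by 1.01 ± 0.11, Mrps18a by 0.84 ± 0.09 and Mrps18c by 0.68 ± 0.09. Mrps18c is the counterpart closest to the bacterial protein, Mrps18b takes another place in the small subunit, and Mrps18a sits in the large one. Mrps30, of the large subunit, differed by 1.00 ± 0.09.

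Among those tested, 4 genes did not pass the test with Rosi at day 4: Mrps16, Mrpl23, Mrps25 and Mrpl52, named after their values were seen. Mrps16, a bacterial-type small subunit protein, had the largest of these differences, 0.26 ± 0.12 (limma adjusted p = 0.070). Its other probe set, not used here, averaged 6.90 with Rosi and 6.32 with vehicle. Mrpl23, a protein at the exit of the tunnel through which the new chain leaves, averaged 7.00 ± 0.05 with Rosi and 6.92 ± 0.08 with vehicle (SD, n = 4 each). Mrps25, in pools 12, 15, 19 and 20, had 7.22, 7.43, 6.90 and 6.91 with Rosi and 7.44, 7.26, 6.67 and 6.87 with vehicle, so its pools differed more than its groups. Mrpl52, a mitochondria-specific large subunit protein, averaged 8.92 ± 0.08 with Rosi and 9.05 ± 0.16 with vehicle. These 4 rose with none of the 5 chemicals at day 4. With the pool as a block, Mrpl52 fell with TBT (limma adjusted p = 0.025).

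For 9 genes there was another probe set naming that gene alone. It was higher with Rosi than with vehicle at day 4 in 8 of the 9 genes, among them Mrpl12 (0.97), Mrpl47 (1.21) and Mrps18b (1.19). That of Mrpl10 was the exception, at -0.14 on a mean value of 4.81, against 0.77 for the probe set used.

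TPhP and MEHP raised most of the set at day 4, by less than Rosi. With TPhP, 45 of the 69 genes rose and 0 fell, where 11.0% of all genes tested rose and 7.94% fell. With MEHP, 46 rose and 0 fell, where 12.1% rose and 11.7% fell. The median differences were 0.33 and 0.35, against -0.03 and -0.05 over all genes. In 45 genes with TPhP and 37 with MEHP the 4 treated arrays lay above all 4 vehicle arrays, where 9.33% and 9.56% of all genes did. The sets named by the 2 chemicals shared 43 genes, but both were compared with the same vehicle arrays, so this overlap is given as a count only.

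The genes that moved most were largely those named for Rosi. With TPhP, Mrps22 had 7.33, 7.36, 7.82 and 7.60 against the vehicle values above, a difference of 0.92 ± 0.12 (limma adjusted p = 6.9e-08), and of 0.98 without pool 12. Mrpl12 differed by 0.83 ± 0.16 and Mrps35 by 0.73 ± 0.10. Mrpl51 (0.68 ± 0.12), Mrpl38 (0.63 ± 0.12), Mrps31 (0.61 ± 0.11), Mrpl32 (0.59 ± 0.17) and Mrps30 (0.58 ± 0.09) followed; Mrpl32 is processed on import by the m-AAA protease before it joins the large subunit. With MEHP, Mrpl12 had 7.23, 7.40, 8.09 and 8.01, a difference of 0.93 ± 0.16 (limma adjusted p = 2.2e-05). The arrays of pools 19 and 20 lay above those of pools 12 and 15. Mrps35 differed by 0.86 ± 0.10, Mrps22 by 0.85 ± 0.12 and Mrps7, a protein of the head of the small subunit, by 0.64 ± 0.11. Mrps12 did not pass the test with TPhP (0.12 ± 0.10) or MEHP (0.10 ± 0.10), and Mrps18c passed it with TPhP (0.36 ± 0.09) and not with MEHP (0.23 ± 0.09).

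These counts leaned on pools 19 and 20. The median difference of the 69 genes in pools 12, 15, 19 and 20 was 0.22, 0.16, 0.54 and 0.41 with TPhP and 0.22, 0.11, 0.58 and 0.52 with MEHP. Without pool 19 the counts were 15 for TPhP and 18 for MEHP, and without pool 20 they were 20 and 22. Without pool 12, 48 rose and 1 fell with each, and without pool 15 48 rose with TPhP, and 49 rose and 1 fell with MEHP. Fitted on the 8 arrays of each comparison alone, 16 rose with TPhP and 12 with MEHP.

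TBT raised fewer. At day 4, 16 of the 69 genes rose and 0 fell, where 10.6% of all genes rose and 9.42% fell, and the median difference was 0.14, against -0.04 over all genes. In 15 genes the TBT arrays lay above all vehicle arrays, where 10.5% of all genes did. Mrps35 had 6.57, 6.69, 6.90 and 6.98 with TBT, all above the vehicle values given above, a difference of 0.58 ± 0.10 (limma adjusted p = 4.6e-05). Mrpl42 (0.50 ± 0.14), Mrps22 (0.47 ± 0.12), Mrpl51 (0.47 ± 0.12), Mrpl12 (0.45 ± 0.16), Mrpl38 (0.44 ± 0.12), Mrps7 (0.40 ± 0.11) and Mrps31 (0.39 ± 0.11) followed. Of the key genes, Mrps18a rose (0.25 ± 0.09), and Mrps30 did so only with the pool as a block (limma adjusted p = 0.043, against 0.070 without it). The median difference was 0.02, -0.02, 0.31 and 0.28 in pools 12, 15, 19 and 20. Without pool 19 the count was 2, and without pool 20 it was also 2; on the 8 arrays compared it was 6.

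LG268 at day 4 gave no call in the set: limma called 0 of the 69 genes, where 4.21% of all genes rose and 2.26% fell. At an unadjusted p under 0.05 there were 6, all lower with LG268, and with the pool as a block 0 were called. The differences ran from -0.30 for Mrps25 to 0.18, with a median of -0.05. Mrps22 had 6.66, 6.62, 6.71 and 6.62 with LG268, within the span of the vehicle values. Mrpl19, of the large subunit, averaged 6.81 with LG268 and 7.09 with vehicle, a difference of -0.28 ± 0.10 that did not pass the test (limma adjusted p = 0.083). Without pool 12, 1 gene was called, lower with LG268.

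The 16 genes that rose with each of Rosi, TBT, TPhP and MEHP at day 4 were Mrpl4, Mrpl9, Mrpl12, Mrpl16, Mrpl37, Mrpl38, Mrpl42, Mrpl47, Mrpl50, Mrpl51, Mrps7, Mrps9, Mrps18a, Mrps22, Mrps31 and Mrps35. These 16 are all the genes that rose with TBT, so the list depends on the TBT calls. Without pool 19, 2 of the 16 still rose with TBT, and without pool 20 also 2. Fitted on only the arrays compared, 6 of them did. A further count, of genes that rose with Rosi, TPhP and MEHP, was 43. These comparisons share their vehicle arrays. The matching shares of all genes were not computed, so both overlaps are given as counts only.

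**Figure D3:**
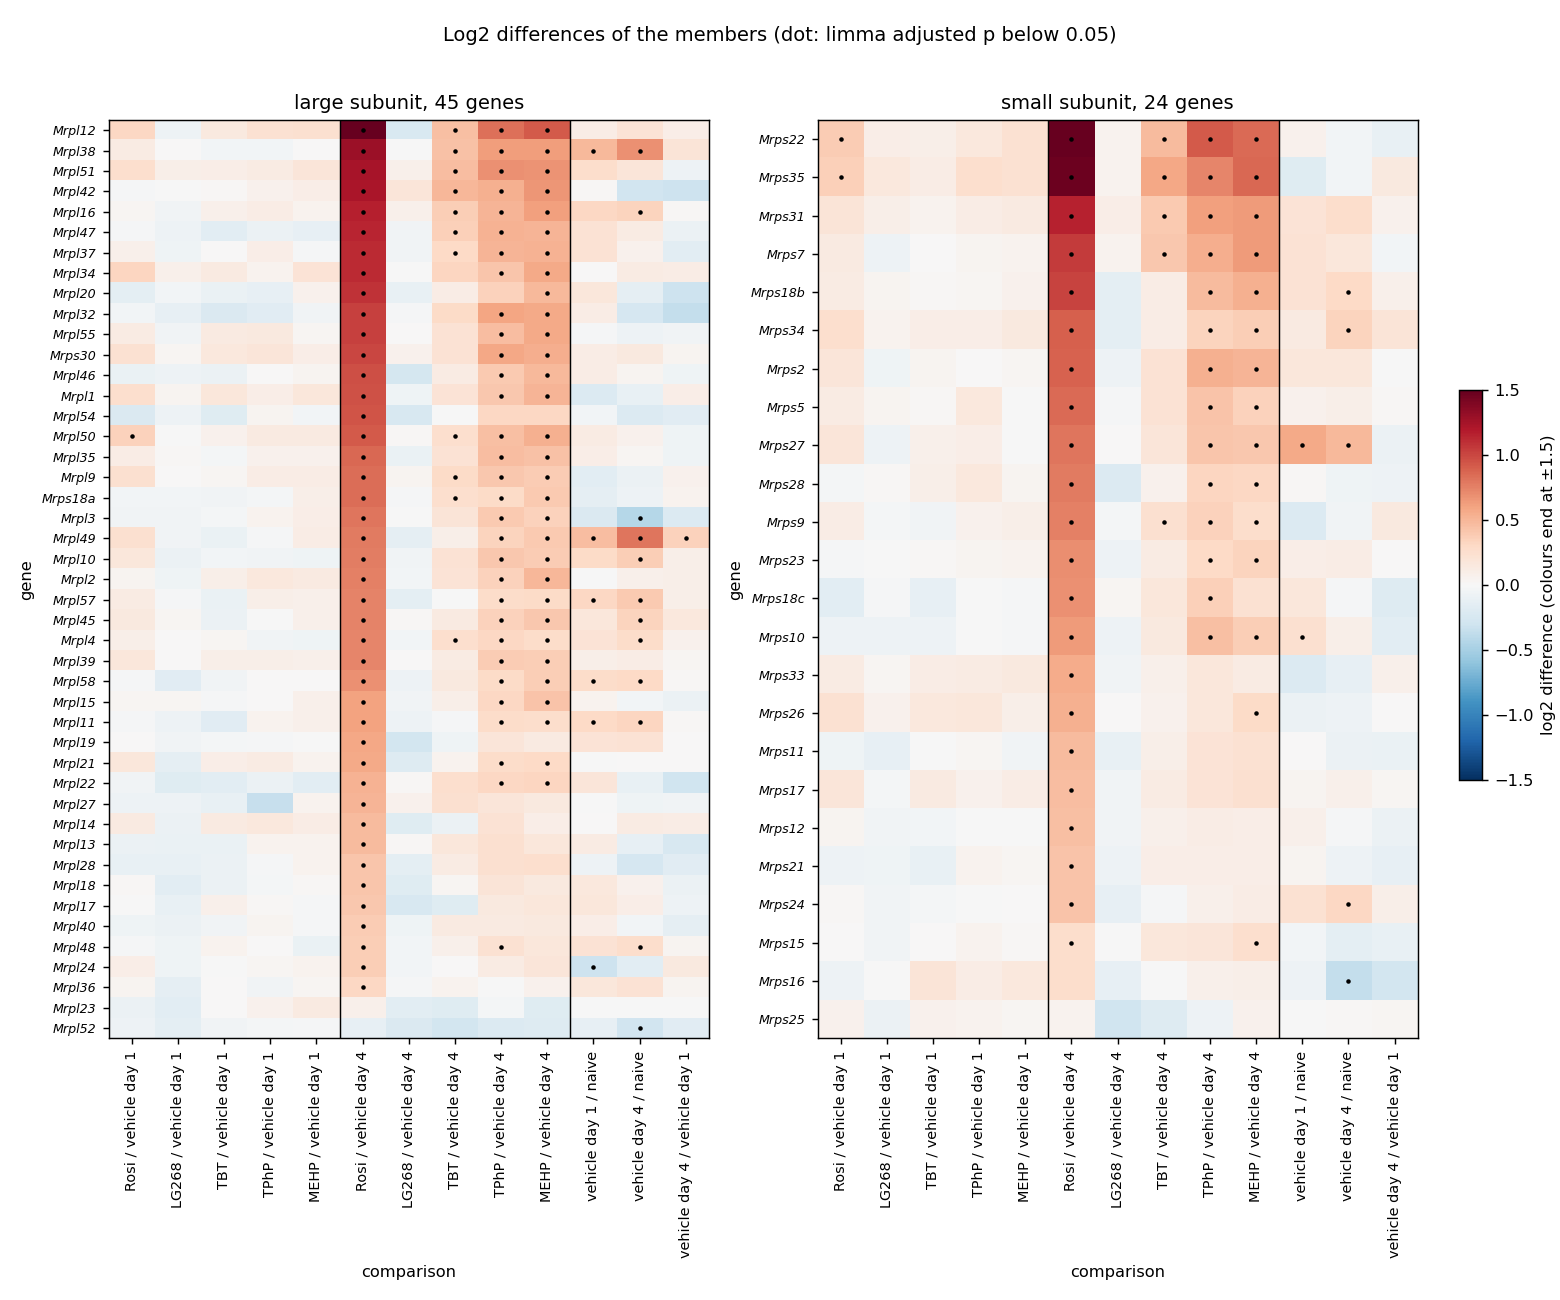
Log2 differences of the 69 tested genes, split into large and small subunit and sorted by the difference with Rosi at day 4; columns are each chemical over vehicle at days 1 and 4 and vehicle against naive or day 1, red is higher, blue lower, colours end at 1.5 in either direction, and dots mark limma adjusted p below 0.05. The day 4 columns of Rosi, TPhP and MEHP are red over most of both panels, that of TBT faintly so, and the day 1 and LG268 columns are pale.

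At day 1 few of these genes were called with any chemical. Rosi raised 3 of the 69 genes, where 4.16% of all genes rose and 3.08% fell: Mrps22 (0.39 ± 0.12), Mrps35 (0.35 ± 0.10) and Mrpl50 (0.34 ± 0.09), the last a mitochondria-specific large subunit protein. Mrpl50 had 8.04, 8.12, 8.07 and 8.21 with Rosi, against 7.71, 7.78, 7.70 and 7.87 with vehicle, with no overlap (limma adjusted p = 0.013). All 3 also rose at day 4. At an unadjusted p under 0.05 there were 12 genes, all higher with Rosi. In 11 all Rosi arrays lay above all vehicle arrays and in 0 below, where 9.2% and 7.95% of all genes did. Mrpl12, at 0.31 ± 0.16, did not pass the test. Leaving out pools 12, 15, 19 and 20 in turn left 1, 1, 1 and 0 calls, and the 8 arrays alone gave 6.

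With LG268, TBT, TPhP and MEHP at day 1 limma called 0 of the 69 genes, where 0.228%, 0.496%, 0.181% and 0.362% of all genes rose and 0.0134%, 0.0469%, 0.0335% and 0.161% fell. At an unadjusted p under 0.05 there were 1, 0, 3 and 1, and the fit with the pool as a block also called 0 in each. So did the fits with 1 pool left out, among them pool 12, whose TPhP array stood apart. The largest differences were those of Mrpl22 (-0.18) with LG268, Mrpl32 (-0.21) with TBT, Mrpl27 (-0.35) with TPhP and Mrpl12 (0.24) with MEHP. Adipocyte markers stood otherwise on these same arrays. With Rosi at day 1 all 10 of them rose and their mean was higher by 2.65, 2.58, 2.38 and 2.62 in pools 12, 15, 19 and 20, while the mean of the 69 ribosomal genes was higher by 0.14, 0.03, 0.09 and 0.02. With MEHP at day 1, 5 of 10 adipocyte markers rose.

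The change in effect from day 1 to day 4 was tested directly. For Rosi the difference from vehicle was larger at day 4 than at day 1 in 60 of the 69 genes and smaller in 0, where 14.4% of all genes gained and 15.6% lost. Mrps22 gained 1.38 ± 0.16, Mrpl42 and Mrpl20 1.24 each (SE 0.19 for both) and Mrpl12 1.18 ± 0.23. Mrpl20 is a bacterial-type large subunit protein. For TPhP 7 genes gained, where 3.66% of all did and 0.832% lost, led by Mrps22 (0.76 ± 0.16) and Mrpl38 (0.67 ± 0.17), and 13 with the pool as a block. For MEHP 12 gained, where 4.29% of all did and 2.07% lost, led by Mrpl47 (0.64 ± 0.16), which sits near the tunnel exit, and Mrps35 (0.63 ± 0.14). With the block, 19 gained and 1 lost. Without pool 19 or without pool 20 both counts were 0, without pool 12 they were 12 and 21, without pool 15 11 and 15, and on the arrays compared 3 and 2. For TBT limma called 0, where 1.37% of all genes gained and 0.396% lost, with 16 at an unadjusted p under 0.05, 1 with the block, and 2 and 1 without pools 12 and 15. For LG268 it called 0, where 0.0805% gained, with 0 at an unadjusted p under 0.05 and 0 with the block.

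Set against Rosi directly at day 4, every other chemical left most of the set lower. With LG268, 68 of the 69 genes were lower than with Rosi (21.5% of all genes), with TBT 63 (18.0%), with TPhP 55 (13.1%) and with MEHP 55 (13.4%). None of the 69 was called higher in these 4 comparisons, where 26.3%, 20.1%, 15.1% and 12.8% of all genes were. The median differences were -0.79, -0.59, -0.40 and -0.39. Mrps22 averaged 6.65 with LG268, 7.08 with TBT, 7.53 with TPhP and 7.45 with MEHP, each lower than the 8.37 with Rosi. TPhP was lower by 0.84 ± 0.12 (limma adjusted p = 8.5e-07) and MEHP by 0.92 ± 0.12 (limma adjusted p = 2.9e-07). Mrpl20 and Mrpl54 were also among the larger gaps: Mrpl20 was lower with TPhP by 0.74 ± 0.14, and Mrpl54 with MEHP by 0.64 ± 0.12. The TPhP and MEHP doses are unknown here, so these gaps hold for the cultures as treated. On the 8 arrays alone, 14 and 2 genes were called for TPhP and MEHP, and without pool 12 the counts were 40 and 33.

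At day 1 few genes separated from Rosi. With LG268, 3 were lower, Mrpl50 (-0.35 ± 0.09), Mrpl21 (-0.30 ± 0.08) and Mrpl49 (-0.29 ± 0.10), where 3.61% of all genes were and 3.38% were higher. With TBT 1 was lower, Mrpl49 (-0.35 ± 0.10), where 1.66% were and 0.946% were higher, and 3 with the pool as a block, Mrps22 among them. Without pools 15, 19 or 20 the LG268 count was 1, 1 and 0, and without pools 12, 19 or 20 the TBT count was 0. With TPhP and MEHP limma called 0, where 1.72% and 1.38% of all genes were lower; 5 and 3 genes had an unadjusted p under 0.05, and 0 were called with the block.

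**Figure D4:**
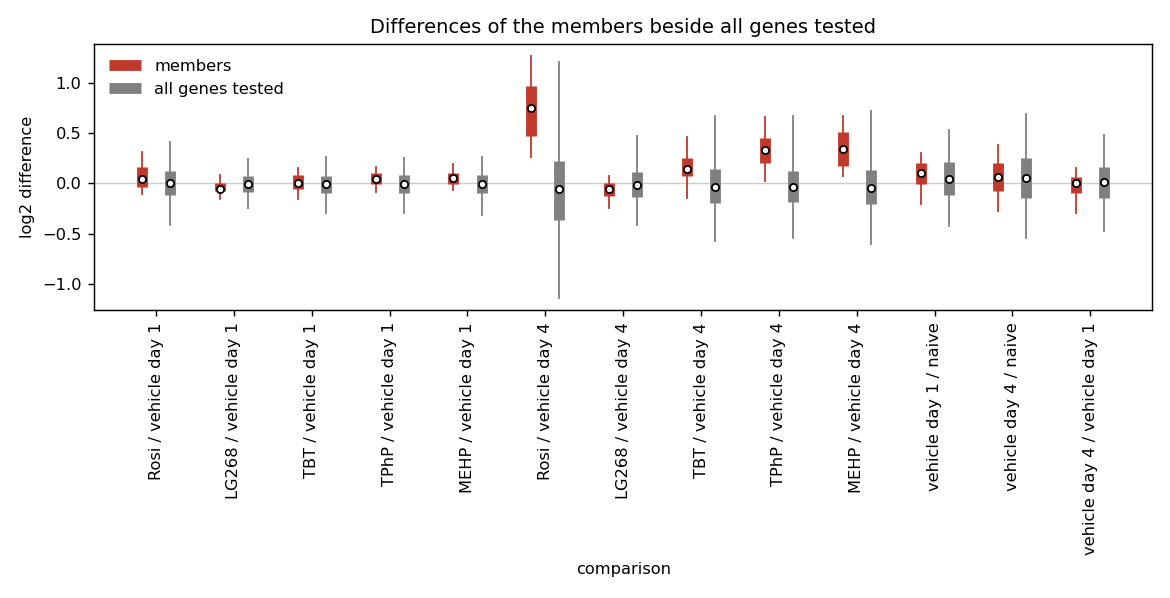
Spread of log2 differences in each comparison for the 69 genes (red) and all 14911 genes tested (grey); circles are medians, thick bars the middle 50% and thin bars the 5th to 95th percentiles. With Rosi at day 4 the middle 50% of the set runs from 0.47 to 0.97 and that of all genes from -0.36 to 0.22.

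Between vehicle and naive cells few of these genes differed; the 2 differ in medium, DMSO and days in culture, which cannot be told apart here. Vehicle cells at day 1 had 7 genes higher and 1 lower than naive cells, where 12.9% and 4.86% of all genes were, so both shares were near or under the background. At day 4, 14 were higher and 3 lower than in naive cells, where 17.4% and 11.5% were. Between vehicle at day 4 and at day 1 only Mrpl49 rose, where 4.6% of all genes did and 8.29% fell, and 0 of the 69 fell. The medians over the set were 0.10, 0.06 and 0.004, against 0.05, 0.05 and 0.01 over all genes. Without pool 19 the 3 counts of calls were 3, 9 and 0, without pool 20 the same, and on the arrays compared 5, 3 and 0. Without pool 12 the last was 2. With the pool as a block, 11 rose and 1 fell at day 1.

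Of these, 6 genes were higher than naive at both days: Mrpl11, Mrpl38, Mrpl49, Mrpl57, Mrpl58 and Mrps27. Both comparisons use the same naive arrays, and the matching share of all genes was not computed, so this overlap is a count only. The centred mean of the 69 genes in naive cells was -0.386 in pool 12, against -0.106, -0.136 and -0.174 in pools 15, 19 and 20. Mrpl49, a mitochondria-specific large subunit protein, had 6.84, 6.97, 6.69 and 6.72 in naive cells, 7.25, 7.45, 7.14 and 7.21 in vehicle at day 1, and 7.58, 7.76, 7.53 and 7.56 in vehicle at day 4. The naive arrays lay below all vehicle arrays, and the day 4 arrays above all those of day 1. The day 4 difference from naive was 0.80 ± 0.10 (limma adjusted p = 4.1e-08), and Rosi stood another 0.78 ± 0.10 above vehicle at day 4. Mrpl38 differed from naive by 0.68 ± 0.12 at day 4, Mrps27, a protein with RNA-binding repeats, by 0.49 ± 0.10, and Mrpl57 by 0.40 ± 0.10. Mrpl58, which is also a peptidyl-tRNA hydrolase that releases stalled chains, differed by 0.28 ± 0.09 at day 1.

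The other direction was seen in 4 genes. Mrpl24, a bacterial-type large subunit protein, differed by -0.31 ± 0.08 in vehicle at day 1 from naive cells (limma adjusted p = 0.0033). Mrpl3, whose bacterial relative reaches toward the catalytic center, had 7.37, 7.57, 7.34 and 7.38 in vehicle at day 4, against 7.56, 7.73, 7.95 and 8.13 in naive cells. One vehicle array overlapped the lowest naive array; the difference was -0.42 ± 0.11 (limma adjusted p = 0.0032). It is the only gene of the set that was lower in vehicle at day 4 than naive and rose with Rosi at day 4, by 0.80 ± 0.11. Mrps16 and Mrpl52 (-0.29 ± 0.11) were also lower at day 4 than naive, and their naive arrays of pool 12, at 6.74 and 8.89, were the lowest of their group.

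Over the 13 groups, 65 of the 69 genes had their highest mean with Rosi at day 4. The exceptions were Mrpl23, highest with MEHP at day 1, Mrps25, highest with MEHP at day 4, and Mrps16 and Mrpl52. The group means spread most for Mrpl12 (SD 0.52 over 13 groups), Mrpl38 (0.52) and Mrps22 (0.49) and least for Mrps15 (0.08), Mrpl23 (0.11) and Mrpl40 (0.11). Mrps15, a bacterial-type protein of the small subunit, averaged 9.30 with Rosi and 9.03 with vehicle at day 4, a small rise of 0.27 ± 0.07 that passed the test. As a description, 46 of the 69 genes correlated above 0.9 with the mean of the others over the 13 group means, with a median of 0.94; the groups share pools and arrays, and 1 group, Rosi at day 4, is far from the rest. Mrpl52 had -0.49.

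Among all other genes tested, those whose 13 group means followed the set's mean most closely were Coq7, of coenzyme Q synthesis, Timm23, the channel of the inner membrane import complex, and Ndufb8, a subunit of complex I, each with Pearson's r of 0.99 over 13 groups. Coq7 had 7.45, 6.83, 7.57 and 7.61 with Rosi at day 4, against 5.75, 5.81, 5.77 and 5.74 with vehicle. The pool 15 array was again the lowest with Rosi, as it was for Mrpl12 and Mrpl51.

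Most genes tested in the rest of the mitochondrial translation machinery rose with Rosi at day 4. Of all genes tested, 21.3% rose and 27.7% fell in that comparison. Genes of a list not counted as risen fell or were not called. Of mitoribosomal proteins with other symbols, all 3 tested rose: Ptcd3 (1.57 ± 0.15), Dap3 (0.86 ± 0.09) and Gadd45gip1 (0.26 ± 0.09). All 13 translation factors rose, with a median of 0.78, among them the elongation factor Gfm1 (1.48 ± 0.15), the recycling factor Gfm2 (1.20 ± 0.11) and Taco1 (1.37 ± 0.13), an activator of cytochrome oxidase subunit translation. Of the charging enzymes for mitochondrial tRNAs and their amidotransferase, 18 of 19 rose, including Fars2 (1.28 ± 0.12) and Iars2 (1.24 ± 0.13). Of assembly and rRNA modification factors 20 of 25 rose, among them the helicase Ddx28 (1.70 ± 0.14), the methyltransferase Mrm3 (1.28 ± 0.12) and the GTPase Mtg1 (1.08 ± 0.12). Of genes that transcribe mitochondrial DNA and keep its RNA 14 of 17 rose, with Lrpprc (1.09 ± 0.12), which stabilizes mitochondrial messengers, and the helicase Supv3l1 (1.01 ± 0.10). Of mitochondrial chaperones, proteases and stress factors 12 of 13 rose, including Lonp1 (1.63 ± 0.13), Clpx (1.75 ± 0.14) and Hspa9 (1.30 ± 0.13).

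Nuclear-encoded subunits of the respiratory chain, the partners of the proteins made by these ribosomes, rose in 69 of 75 genes and fell in 1, with a median of 1.14. Cyc1 differed by 2.14 ± 0.18 and Ndufs1 by 1.72 ± 0.14. Cytosolic ribosomal proteins went the other way: 3 rose and 40 fell of 62, with a median of -0.31, and Rps12 (-0.48 ± 0.08) and Rplp1 (-0.52 ± 0.08) were among those that fell, while Rpl39l rose by 1.47 ± 0.18. Both medians stand beside -0.05 over all genes, of which 21.3% rose and 27.7% fell. In LG268 cultures at day 4, 0 of 75 respiratory chain genes rose and 1 fell; with TBT, TPhP and MEHP 38, 60 and 61 rose and 1, 1 and 2 fell. With TBT 46 rose with the pool as a block. Of all genes tested, 4.21% rose and 2.26% fell with LG268 at day 4. With TBT, TPhP and MEHP 10.6%, 11.0% and 12.1% of all genes rose, and 9.42%, 7.94% and 11.7% fell.

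Of 12 nuclear regulators of mitochondrial genes, 5 rose and 3 fell with Rosi at day 4. Of all genes tested 21.3% rose and 27.7% fell, so the count that fell was near the background. The coactivators Ppargc1a and Ppargc1b rose most, by 4.65 ± 0.30 and 2.15 ± 0.22. Ppargc1a averaged 7.87 with Rosi and 3.22 with vehicle. The vehicle value lies under the table's median, so the size is uncertain. Esrra, the estrogen-related receptor they bind, rose by 0.77 ± 0.11, Tfam, which packages mitochondrial DNA, by 0.45 ± 0.11, and Gabpa, the DNA-binding part of GABP, by 0.28 ± 0.07. Nrf1 did not pass the test (-0.09 ± 0.07), and Yy1 (-0.15 ± 0.06), Myc (-0.42 ± 0.12) and Pprc1 (-0.44 ± 0.13) fell; Gabpa and these 4 were named after their values were seen. With TPhP and MEHP Ppargc1a rose by 2.84 ± 0.30 and 2.85 ± 0.30, and with TBT by 2.41 ± 0.30. With LG268 it differed by 0.85 ± 0.30, which passed the test only with the pool as a block (limma adjusted p = 0.043, against 0.085 without it).

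Many markers of cell types also changed at day 4, where 21.3% of all genes rose and 27.7% fell with Rosi. With Rosi all 10 adipocyte markers rose, with their mean level between 10.7 and 11.0 on Rosi arrays and between 7.20 and 8.56 on vehicle arrays. All 10 macrophage markers fell (9.22 to 10.5 with Rosi, 10.6 to 11.0 with vehicle), as did 9 of 9 markers of dividing cells (6.34 to 6.96 and 7.59 to 7.92), 6 of 8 osteoblast markers (6.18 to 7.17 and 7.49 to 8.99), 4 of 7 stromal markers (8.70 to 9.27 and 9.45 to 9.97) and 4 of 7 osteoclast markers (5.91 to 6.68 and 6.96 to 7.97). The Rosi array of pool 15 stood apart: its centred macrophage mean was 0.04, against -0.97, -1.19 and -1.28 in pools 12, 19 and 20, and its endothelial mean -1.53, against 0.57, 0.06 and 0.33. With TBT, TPhP and MEHP all 10 adipocyte markers rose as well (9.77 to 10.5, 10.1 to 10.9 and 9.97 to 10.9), where 10.6%, 11.0% and 12.1% of all genes did. Of 9 dividing-cell markers 7, 0 and 2 fell, as did 5, 4 and 5 of 8 osteoblast, 5, 4 and 4 of 7 osteoclast and 1, 2 and 1 of 10 macrophage markers. Of all genes 9.42%, 7.94% and 11.7% fell with these chemicals, so the macrophage counts with TBT and MEHP were near the background. With LG268 6 of the 10 adipocyte markers rose (8.73 to 9.44), 3 osteoclast and 1 osteoblast marker fell, and 0 of the 69 ribosomal genes rose. Of all genes 4.21% rose and 2.26% fell with LG268. Macrophage markers stayed far above the table's median on every Rosi array. The part of cell composition in the ribosomal results was not tested.

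The ribosomal and adipocyte means were set side by side by pool, with no test. The adipocyte mean, each gene centred on its own mean over all arrays, was 1.34, 1.20, 1.97 and 1.84 with TPhP at day 4 in pools 12, 15, 19 and 20, where the ribosomal mean was 0.10, 0.13, 0.33 and 0.25. With MEHP it was 1.06, 1.29, 1.96 and 1.87, where the ribosomal mean was 0.09, 0.09, 0.34 and 0.36. With both chemicals pools 19 and 20 were thus above pools 12 and 15 in both lists. With Rosi pool 15 was lowest in both, at 1.75 and 0.415. The vehicle arrays' adipocyte means were -1.71, -1.01, -0.55 and -0.34, lowest in pool 12, and as differences from vehicle the adipocyte means had another order of pools. The vehicle arrays' ribosomal means were -0.10, -0.03, -0.23 and -0.17, lower in pools 19 and 20. Every chemical was compared with these same arrays, so part of the pool split in the differences below comes from vehicle. The mean of the 69 genes differed from vehicle of the same pool by 0.77, 0.45, 0.89 and 0.86 with Rosi in pools 12, 15, 19 and 20, by 0.21, 0.16, 0.56 and 0.42 with TPhP and by 0.19, 0.12, 0.58 and 0.53 with MEHP. The adipocyte mean differed by 3.78, 2.76, 2.58 and 2.40 with Rosi, by 3.05, 2.21, 2.52 and 2.19 with TPhP and by 2.77, 2.30, 2.51 and 2.21 with MEHP, highest in pool 12 each time. With MEHP the respiratory chain mean differed by 0.23 and 0.30 in pools 12 and 15 and by 0.90 and 0.82 in pools 19 and 20, the same split as the ribosomal mean. With only 4 pools these are values, without a test.

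**Figure D5:**
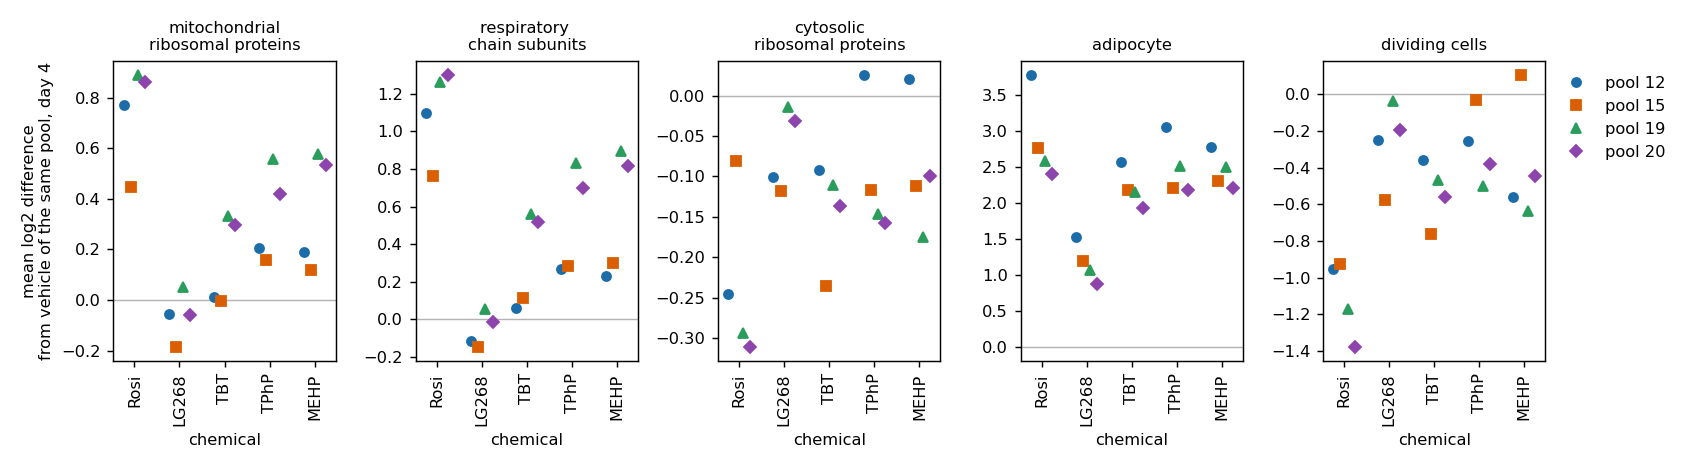
Mean log2 difference from vehicle of the same pool at day 4 for 5 gene lists, by chemical; each symbol is a pool, and the vertical scales differ between panels. In the ribosomal and respiratory chain panels pools 19 and 20 lie above pools 12 and 15 with TBT, TPhP and MEHP, whereas in the adipocyte panel pool 12, whose vehicle level was lowest, is highest with every chemical. All chemicals share the vehicle arrays, whose ribosomal means were lower in pools 19 and 20.

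The 2 genes under the filter gave no test. Mrps36 had 3.82, 3.77, 3.88 and 3.61 with Rosi at day 4, against 3.58, 3.09, 2.96 and 3.18 with vehicle, all below the table's median of 4.05. Mrps14, of the small subunit, averaged 3.59 ± 0.12 with Rosi and 3.40 ± 0.53 with vehicle. Near background, neither can be said to have stayed level.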

How the data were processed

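Affymetrix Mouse Gene 2.0 ST arrays measured RNA of 52 cultures. The deposited values are log2 intensities for 41345 probe sets. The submitters' processing notes name oligo and R 3.3.1, and how the authors normalized is not stated in the labels. Of the probe sets, 23521 name 1 gene, 1814 several and 16010 none, by the platform annotation. The probe set with the highest mean stood for each of 22180 genes, and 14911 genes were tested, those above the median of all values, 4.05, on at least 4 arrays.

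Group means of all 52 arrays were fitted with limma 3.58.1 (R 4.3.3; 39 residual and 3.45 prior degrees of freedom), with Benjamini-Hochberg adjustment over all genes tested and a threshold of 0.05. There were 26 comparisons. The fit was run for Rosi against vehicle at day 4 on data simulated without pool effects, unlike these arrays. Only 50 of 14911 genes were changed at each size, 0.5, 1, 1.5 and 2. In the real comparison 21.3% of all genes rose and 27.7% fell. Adjusted p depends on the share of genes changed, so the simulated rates need not hold for these data. The fit called 54% of changes of 0.5 log2 units and 92% of changes of 1, and 7 of its 178 calls were false. Smaller changes can thus stay uncalled. Named genes were, per comparison, up to 8 rises and 8 falls of greatest size, from calls with the same sign in 4 of 4 pools, or the 2 largest differences where fewer than 3 were called; 8 key genes; up to 4 calls of smallest adjusted p from each other list; the 3 most and 3 least spread over groups; and the 3 other genes most like the set. The pools pair the samples, since the labels give them a shared number and describe a pool as 1 experiment. For 45 of 52 arrays the best correlate was their own pool, and the median same-pool correlation of deviations was 0.339 over 84 pairs, with 66 over 0.1. The 10 alternatives were the pool as a block, only the arrays compared, cyclic loess, the mean of a gene's probe sets, no filter, a filter at the 75th percentile (6.34, 8934 genes), and each of the 4 pools left out. Members, gene lists and marker lists were chosen with earlier results of these data known. Promoters were read from RefSeq (GRCm38.p6). Tabulation used pandas 2.3.3 and numpy 2.4.6 under Python 3.11.15, and plots used matplotlib 3.10.9.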

Additional observations from a re-analysis of the deposited data

Results flagged for a closer look

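Of 143 groups of 4 arrays examined, 7 held an array whose gap to the nearest of the others exceeded Dixon's 95% critical value, about as many as the 1 in 20 that chance gives. The mean of the 69 genes in the Rosi array of pool 15 at day 4, at 0.415, was lowest of its group, as was Mrpl51 there, at 7.59. That array also stood apart in macrophage markers, whose mean differed from vehicle by -0.37, against -1.51, -1.40 and -1.40 in pools 12, 19 and 20; their part in the ribosomal values was not tested. Mrpl49 was highest in pool 12 of the same group, at 8.48. At day 1 with Rosi, Mrpl38 in pool 12, at 7.39, and Mrps22 in pool 15, at 6.86, stood apart. So did Mrps27 with MEHP in pool 20 at day 1, at 6.29, and Mrps36 with TPhP in pool 20 at day 4, at 3.62, a level under the table's median.

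The difference from vehicle was larger at day 4 than at day 1 by the test of that change itself. With Rosi the 8 largest gains were those of Mrps22 (1.38), Mrpl42 (1.24), Mrpl20 (1.24), Mrpl12 (1.18), Mrpl38 (1.17), Mrpl54 (1.17), Mrpl47 (1.16) and Mrpl16 (1.13), each with the same sign in 4 of 4 pools. With TPhP they were Mrps22 (0.76), Mrpl38 (0.67), Mrpl47 (0.61), Mrpl51 (0.56), Mrps35 (0.49), Mrps10 (0.46) and Mrpl35 (0.39). With MEHP they were Mrpl47 (0.64), Mrps35 (0.63), Mrps22 (0.62), Mrpl38 (0.62), Mrps7 (0.59), Mrpl16 (0.56), Mrpl37 (0.54) and Mrps31 (0.50). Without pool 19 or without pool 20 none of the gains with TPhP or MEHP passed the test.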

How the results depend on the processing

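Of 260 alternative counts, 203 stayed within 1.5 times the count given above and 57 did not, and of 2686 alternative values of named genes 0 reversed, 191 no longer passed the test and 15 newly did. With the pool as a block (replicate block) the counts of genes called were 13 for the TPhP and 20 for the MEHP change from day 1 to day 4, 1 for that of TBT and 3 for TBT against Rosi at day 1; no other count moved by over 1.5 times. Fitted on only the arrays compared, vehicle against naive gave 5 at day 1 and 3 at day 4, and vehicle day 4 against day 1 gave 0. Rosi at day 1 then gave 6, and at day 4 TBT gave 6, TPhP 16 and MEHP 12. The changes from day 1 to day 4 gave 1 for TBT, 3 for TPhP and 2 for MEHP, and against Rosi TBT gave 0 at day 1, TPhP 14 and MEHP 2 at day 4; such fits have fewer degrees of freedom. Cyclic loess gave 4 for the TPhP change. No filter gave 4 for TPhP, 7 for MEHP and 0 for TBT against Rosi at day 1, and the stricter filter 13 and 20 for the TPhP and MEHP changes. The cause was not tested. With 1 pool left out, counts ran from 64 to 65 for Rosi at day 4, 2 to 19 for TBT, 15 to 49 for TPhP, 18 to 50 for MEHP, 0 to 1 for LG268 and 0 to 1 for Rosi at day 1. They ran from 3 to 9, 9 to 18 and 0 to 2 for vehicle day 1 and day 4 against naive and day 4 against day 1. For changes from day 1 to day 4 they ran from 44 to 61 for Rosi, 0 to 2 for TBT, 0 to 12 for TPhP and 0 to 21 for MEHP. Against Rosi they ran at day 1 from 0 to 2 for LG268 and 0 to 1 for TBT, and at day 4 from 65 to 68 for LG268, 58 to 62 for TBT, 40 to 53 for TPhP and 33 to 50 for MEHP. The number of arrays, 4 a group, limits the precision, and the authors' normalization is not known.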

Other observations

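Mitochondrial translation genes outside the ribosome were also called at day 4 with TBT, TPhP and MEHP, where 10.6%, 11.0% and 12.1% of all genes rose, and 4.21% with LG268. Of 13 mitochondrial translation factors, 5 rose with TBT, 10 with TPhP and 11 with MEHP, and 0 with LG268. Of 19 aminoacyl-tRNA synthetases and related enzymes, 5, 14 and 14 rose, and 1 with LG268. Of 25 assembly and rRNA modification factors 4, 8 and 7 rose, of 17 genes for mitochondrial DNA transcription and RNA upkeep 3, 9 and 10, and of 13 quality control genes 5, 9 and 9, with 0 in each of these 3 lists with LG268. None of these lists had a member that fell with TBT, TPhP or MEHP. The lists were chosen with earlier results of these data known, and these comparisons share the vehicle arrays.

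Endothelial and neutrophil markers gave these counts at day 4. All 5 endothelial markers rose with TBT, 3 with MEHP, 2 with LG268, 1 with Rosi and 0 with TPhP. In the same order, 10.6%, 12.1%, 4.21%, 21.3% and 11.0% of all genes rose. Of 7 neutrophil markers, 5 fell with LG268 and 3 with TBT, and 0 with Rosi, TPhP or MEHP. In the same order, 2.26%, 9.42%, 27.7%, 7.94% and 11.7% of all genes fell. The neutrophil mean of the pool 12 array differed from vehicle by -4.08 with TPhP and -2.52 with MEHP, unlike the other pools. The count of 0 for these chemicals therefore does not show that the markers stayed level.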
